A study of Homo sapiens with 12 samples.

Results

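The genes followed here belong to the stromal type of extracellular matrix and were measured in PANC-1 cells, an established human line from a pancreatic ductal carcinoma. They are LUM and DCN, which code for small leucine-rich proteoglycans, MFAP5 and FBN1 of microfibrils, BMP1 of procollagen processing, LOX and LOXL2 of the lysyl oxidases, SPARC, and the collagen chains COL5A1 and COL6A1. These 10 members of 23284 genes listed were chosen by gene symbol, with earlier results of the comparison between the populations known, so their population differences are given as a description with no test. All cells had received a retroviral vector for ZsGreen fused to the degron of ornithine decarboxylase, which lets the protein accumulate where proteasome activity is low, and had been selected with G418. The degron (−) population was the infected line, in which few cells were ZsGreen positive. The degron (++) population was the brightest portion sorted out of a line, degron (+), that had been enriched by repeated sorting and culture. The study asked which genes differ between these populations in connection with radioresistance. Either population gave a group at 48 h without irradiation (0 Gy) and groups at 30 h and 48 h with 4 Gy of gamma rays, so that 6 groups of 2 libraries make 12 in all. Values are given in this order unless another is stated. What starts the count of hours is left unsaid by the labels, and there was no unirradiated group at 30 h. They call the libraries taken here as degron (−) ZsGreen-negative in one field and d+ in another. Nothing says that the libraries of a group came from separate cultures, so p-values measure only the spread between these samples.

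In the matrix, small leucine-rich proteoglycans such as lumican and decorin bind collagen fibrils and limit their width, and fibrillin and its associated glycoproteins form microfibrils that scaffold elastic fibres and hold growth factor complexes. BMP1 cuts the C-terminal propeptide from procollagen, after which fibrils assemble, and lysyl oxidases oxidize lysines of collagen and elastin so that the chains become cross-linked. In pancreatic carcinoma most of this matrix is laid down by fibroblasts and stellate cells of the stroma, and carcinoma cells can express part of it.

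The authors deposited FPKM, fragments scaled to exon length and to the number of mapped reads, a scale on which levels of different genes can be compared. FPKM hold no counts, so the depth behind each value is unknown. Summed over genes, FPKM came to 829654 to 916877 in degron (++) and 707273 to 763064 in degron (−). Each of the 12 libraries correlated best with a library of its own population, and only 3 with the other library of their group. Keratins and the other epithelial markers summed to 7180 to 8370 FPKM in degron (++) and 4230 to 5140 in degron (−) libraries. Of 12 fibroblast and stellate cell markers, 8 were at or under 0.5 FPKM in all 12 libraries, and COL1A2, DES and DPT were listed at 0 in all of them. The sum of this list was 2.58 to 3.11 FPKM in degron (++) and 42.5 to 56.8 in degron (−) libraries, of which COL1A1 made up 36.5 to 52.3 in degron (−). Among carcinoma genes of the mesenchymal type, VIM was at 13.2 to 19.2 FPKM in degron (++) and 2380 to 2710 in degron (−), and ZEB1 at 0.03 to 0.067 and 7.84 to 9.84, while CDH2 and FN1 were higher in every degron (++) library. CDKN2A, a gene that PANC-1 is known to have lost by homozygous deletion, was listed at 100 to 112 FPKM in degron (++) libraries and at 11 to 21.1 in degron (−) libraries, which goes against the label of the line in all 12. The populations are called here by their labels.

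LUM was among the genes with high levels in degron (++) cells. Its FPKM there were 24.7 and 22.6 without irradiation, 14.2 and 13.8 at 30 h with 4 Gy, and 21.8 and 22.4 at 48 h with 4 Gy. In degron (−) cells they were 1.38 and 1.16, 0.29 and 0.567, and 1.23 and 1.60 in the same order. Every degron (++) library lay above every degron (−) library, and the lowest group of each population was the 30 h group. The ratio of mean FPKM was 18.6 without irradiation, 32.7 at 30 h with 4 Gy, and 15.6 at 48 h with 4 Gy. On the log2(FPKM + 1) scale, which understates the change of low genes, degron (++) exceeded degron (−) by 3.44, 3.40 and 3.26 (standard error 0.11 each, limma fit). Ordered by mean, the 3 degron (++) groups came first without overlap, and only degron (−) at 48 h with 4 Gy (1.42 ± 0.267, SD, n = 2) and with 0 Gy (1.27 ± 0.153, SD, n = 2) overlapped each other. In bulk libraries, fewer cells that express a gene and less of its RNA per cell cannot be told apart.

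DCN, the proteoglycan gene next to LUM with 0 protein-coding genes between them in the RefSeq annotation of GRCh38.p14, was listed at 0 in all 12 libraries. A listing at 0 was not read as absence. Of 83 ribosomal protein genes taken by symbol, 1 that is not Y-linked was also at 0 in all 12. Whether that gene is expressed in such cells was not checked. None of the 11 other proteoglycan genes of the family reached the filter for testing, which asked for 2 or more libraries at 1 FPKM or above. BGN (biglycan) was at most 0.032, FMOD (fibromodulin) at most 0.059, and ASPN (asporin) at most 0.046 FPKM in any library. LUM was therefore the single gene of its family that could be tested.

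**Figure D1:**
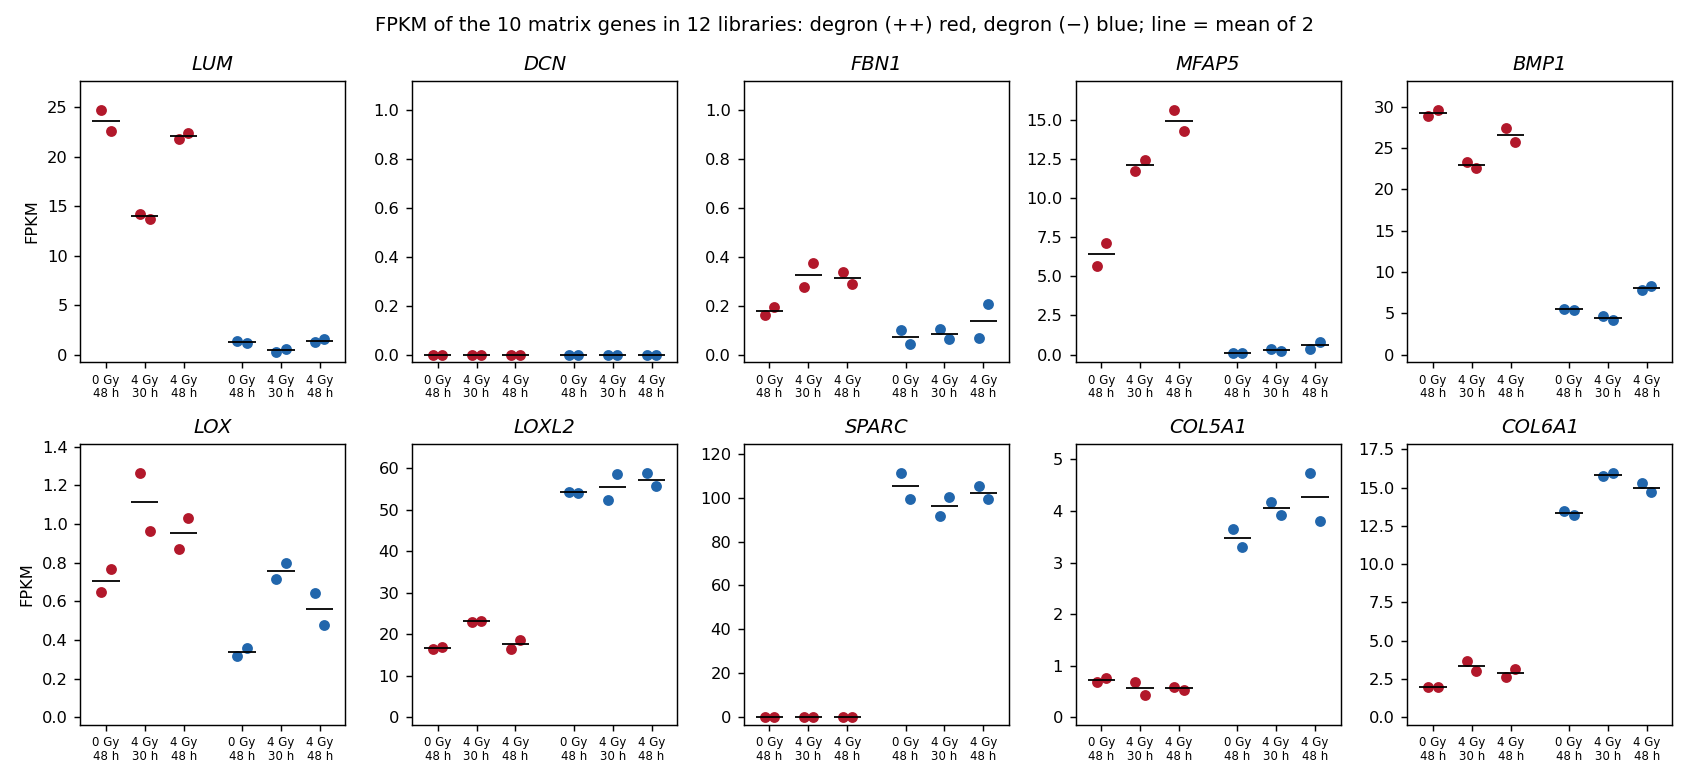
FPKM (vertical axis, linear, a scale for each panel) of the 10 matrix genes in every library, by dose and time, with degron (++) in red and degron (−) in blue; each point is a library and each line the mean of 2. LUM, MFAP5 and BMP1 lie higher in every degron (++) library, LOXL2, SPARC, COL5A1 and COL6A1 lie lower, LOX and FBN1 overlap over all libraries, and DCN is at 0.

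MFAP5, a small glycoprotein of microfibrils, had the widest relative range inside degron (++) cells among members above 1 FPKM there. Its FPKM were 5.68 and 7.10 without irradiation, 11.7 and 12.4 at 30 h with 4 Gy, and 15.6 and 14.3 at 48 h with 4 Gy. In degron (−) cells they were 0.123 and 0.096, 0.325 and 0.218, and 0.345 and 0.830. The groups stood in the same order of dose and time in either population, lowest without irradiation and highest at 48 h with 4 Gy, with no overlap between neighbours in that order. The population difference was 2.73, 3.36 and 3.34 on the log2(FPKM + 1) scale (standard error 0.14 each) without irradiation, at 30 h with 4 Gy and at 48 h with 4 Gy. The ratio of mean FPKM stood in another order, 58.3, 44.5 and 25.4, and with a pseudocount of 0.1 in place of 1 the log2 difference without irradiation became 4.95.

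FBN1, which codes for fibrillin-1, the main structural protein of microfibrils, stayed below the filter in every library. It was at 0.162 to 0.374 FPKM in degron (++) and 0.045 to 0.207 in degron (−) libraries, so the populations overlapped over all conditions but not within any condition. FBN2 reached at most 0.009 FPKM and ELN (elastin) at most 0.080. MFAP5 was thus measured in degron (++) cells at a median of 12.1 FPKM beside FBN1 at 0.282.

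The other genes of each family were listed by family and not by value, but with earlier results of these data known, which limits their p-values. Of 17 other elastic fibre and microfibril genes, 10 were tested. Without irradiation 3 were higher and 6 lower in degron (++) cells (limma, Benjamini-Hochberg adjusted p under 0.05). Over all tested genes, 37.6% were called higher and 40.2% lower. EFEMP1 (fibulin-3) was at 290 to 308 FPKM in degron (++) cells and 35 to 64.3 in degron (−), a log2 difference of 2.69 (standard error 0.05, limma adjusted p = 3.31e-10). LTBP3 differed by 0.83 (limma adjusted p = 5.95e-06). On the other side, LTBP2, a latent TGF-β binding protein that associates with fibrillin, was at 0.519 to 0.709 FPKM in degron (++) and 54.4 to 65.3 in degron (−), a log2 difference of -5.31 (standard error 0.06, limma adjusted p = 3.36e-11). FBLN1 (fibulin-1) differed by -3.70 (limma adjusted p = 1.44e-09), and MFAP2, the nearest relative of MFAP5, by -1.59 (limma adjusted p = 9.04e-06). MFAP2 was at most 0.095 FPKM in degron (++) and 1.79 to 4.39 in degron (−) libraries, so these related microfibril genes stood on opposite sides.

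BMP1, the procollagen C-proteinase, was at 28.9 and 29.6 FPKM in degron (++) cells without irradiation, 23.3 and 22.6 at 30 h with 4 Gy, and 27.5 and 25.7 at 48 h with 4 Gy. Degron (−) cells had 5.56 and 5.43, 4.62 and 4.24, and 7.82 and 8.26. All 6 groups stood apart without overlap, and the 30 h group was again the lowest of each population. The ratio of means was 5.31 without irradiation, 5.18 at 30 h with 4 Gy, and 3.31 at 48 h with 4 Gy, and the log2 differences were 2.22, 2.14 and 1.61 (standard error 0.05 each).

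The partners of BMP1 were not higher with it. PCOLCE and PCOLCE2, secreted proteins that enhance its action on procollagen, were the 2 tested genes of 9 others in procollagen processing. Both were called lower without irradiation, as were 40.2% of all tested genes. PCOLCE was at 0.478 to 1.19 FPKM in degron (++) and 1.81 to 3.54 in degron (−) libraries, and its log2 difference without irradiation was -0.70 (standard error 0.19, limma adjusted p = 0.00937). PCOLCE2 was at 0.231 to 0.831 and 9.17 to 11.9 FPKM, a difference of -2.98 (standard error 0.12, limma adjusted p = 3.65e-08). The related proteases TLL1 and TLL2 reached at most 0.039 and 0.273 FPKM, and the N-proteinases ADAMTS2, ADAMTS3 and ADAMTS14 at most 0.343, 0.459 and 0.609.

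LOX and LOXL2 differed in both level and direction. LOXL2 was at 16.5 and 16.9 FPKM in degron (++) cells without irradiation, 22.9 and 23.2 at 30 h with 4 Gy, and 16.5 and 18.7 at 48 h with 4 Gy. The degron (−) libraries gave 54.2 and 54.1, 52.3 and 58.6, and 58.8 and 55.7. Every degron (++) library was lower, the 3 degron (−) groups overlapped each other in order, and the 30 h group stood highest within degron (++). The log2 differences were -1.64, -1.23 and -1.65 (standard error 0.07 each). LOX stayed near 1 FPKM or below, at 0.648 and 0.766, 1.26 and 0.965, and 0.872 and 1.03 in degron (++) cells, and at 0.316 and 0.359, 0.715 and 0.796, and 0.645 and 0.478 in degron (−) cells. Its populations overlapped over all conditions but not within any condition, with log2 differences of 0.35, 0.27 and 0.32 (standard error 0.10 each).

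All 3 other lysyl oxidase genes were tested. LOXL1 was lower in degron (++) cells, at 3.77 to 4.99 against 12 to 15.8 FPKM (log2 difference -1.25 without irradiation, standard error 0.06, limma adjusted p = 9.46e-08). LOXL4 was higher, at 4.88 to 13.2 against 2.56 to 3.60 FPKM (1.5, standard error 0.18, limma adjusted p = 5.41e-05). LOXL3 differed by -0.03 without irradiation (limma adjusted p = 0.792) and by 0.57 at 30 h with 4 Gy (limma adjusted p = 0.000559). The family of 5 was therefore split, with LOXL2 and LOXL1 lower and LOXL4 higher in degron (++) cells.

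SPARC, a secreted glycoprotein that binds collagen and calcium, had the widest gap of the members. In degron (++) cells it was at 0.025 and 0 FPKM without irradiation, 0.086 and 0.025 at 30 h with 4 Gy, and 0.078 and 0.098 at 48 h with 4 Gy. Its degron (−) values were 111 and 99.5, 91.7 and 100.4, and 105 and 99.2. The 3 degron (−) groups overlapped each other. Among the degron (++) groups, all close to 0, the 30 h group overlapped both others and the 2 groups at 48 h did not overlap each other. The log2 differences were -6.71, -6.52 and -6.57 (standard error 0.07 each), and with a pseudocount of 0.1 in place of 1 the first became -9.88. Of 7 relatives of SPARC, the 3 that were tested stood on the other side, where 37.6% of all tested genes were called higher without irradiation. SPOCK2 was at 321 to 367 FPKM in degron (++) and 20.4 to 43.7 in degron (−) libraries (log2 difference 3.52 without irradiation, standard error 0.12, limma adjusted p = 1.33e-08). SPOCK1 differed by 1.83 (limma adjusted p = 6.82e-08) and FSTL1 by 0.77 (limma adjusted p = 1.74e-05).

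COL5A1, a chain of collagen V, which joins collagen I in fibrils and sets their width, was at 0.676 and 0.758 FPKM in degron (++) cells without irradiation, 0.691 and 0.429 at 30 h with 4 Gy, and 0.591 and 0.533 at 48 h with 4 Gy. In degron (−) cells the FPKM were 3.65 and 3.30, 4.18 and 3.93, and 4.74 and 3.81. Every degron (++) library was lower, with log2 differences of -1.38, -1.70 and -1.75 (standard error 0.11 each). Its partner chain COL5A2 was at 0.037 to 0.1 FPKM in degron (++) and 37.2 to 42.1 in degron (−) libraries (log2 difference -5.21 without irradiation, standard error 0.06, limma adjusted p = 2.65e-11). In degron (−) cells COL5A2 thus stood at a median of 40.1 FPKM beside COL5A1 at 3.87. All 4 tested genes of 10 other fibrillar collagens were lower in degron (++) cells at each dose and time. Of all tested genes, 39.6% to 40.8% were called lower, by condition. Among the 4 were COL1A1 (-4.97 without irradiation, limma adjusted p = 3.92e-10) and COL11A1 (-2.59, limma adjusted p = 2.06e-09). COL1A2, the partner of COL1A1 in collagen I, was listed at 0 in all 12 libraries.

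COL6A1, a chain of the beaded filaments of collagen VI, was at 1.97 and 2.0 FPKM in degron (++) cells without irradiation, 3.65 and 3.02 at 30 h with 4 Gy, and 2.60 and 3.13 at 48 h with 4 Gy. For degron (−) cells its FPKM were 13.5 and 13.2, 15.8 and 15.9, and 15.3 and 14.7. Every degron (++) library was lower, and in either population the unirradiated group was the lowest. The log2 differences were -2.26, -1.96 and -2.05 (standard error 0.08 each). COL6A2, which neighbours COL6A1 on chromosome 21 with 0 protein-coding genes between them, was listed at 0 in all 6 degron (++) libraries and at 8.54 to 11.1 FPKM in degron (−) libraries. COL6A3, the chain that completes the classical trimer, reached at most 0.051 and 0.598 FPKM.

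RefSeq promoter windows, the 250 bases before the transcription start on GRCh38.p14, were at hand for 4 members, FBN1, LOX, SPARC and COL5A1. They are shown for COL5A1 and SPARC, which were both lower in degron (++) cells, and for LOX, whose populations overlapped. Capitals mark a GC box (GGGCGG, or CCGCCC on the other strand) or a CCAAT box. The COL5A1 window lies at chr9:134641553-134641802 on the plus strand, SPARC at chr5:151686916-151687165 and LOX at chr5:122078260-122078509, both on the minus strand and printed 5′ to 3′ in the direction of the gene.
COL5A1: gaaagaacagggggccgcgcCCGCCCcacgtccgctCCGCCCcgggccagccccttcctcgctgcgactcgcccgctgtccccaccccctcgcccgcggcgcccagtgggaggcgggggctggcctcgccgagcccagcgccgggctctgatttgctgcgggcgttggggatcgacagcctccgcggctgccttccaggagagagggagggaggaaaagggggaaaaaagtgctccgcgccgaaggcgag
SPARC: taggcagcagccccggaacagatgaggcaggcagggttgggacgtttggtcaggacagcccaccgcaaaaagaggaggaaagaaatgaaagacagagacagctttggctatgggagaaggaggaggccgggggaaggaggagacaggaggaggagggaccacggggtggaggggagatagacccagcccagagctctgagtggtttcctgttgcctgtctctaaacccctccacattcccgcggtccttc
LOX: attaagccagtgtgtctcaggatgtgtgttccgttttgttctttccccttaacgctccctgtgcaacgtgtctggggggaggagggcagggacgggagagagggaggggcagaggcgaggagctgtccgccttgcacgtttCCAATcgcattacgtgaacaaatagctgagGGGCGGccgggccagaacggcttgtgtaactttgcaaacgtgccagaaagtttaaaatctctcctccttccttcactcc
The COL5A1 window held 29 CpG and 74.0% G and C, the SPARC window 7 CpG and 59.2%, and the LOX window 13 CpG and 55.2%. Of 27305 RefSeq windows of this length, 86.2% held fewer CpG than COL5A1, 41.6% fewer than SPARC and 53.6% fewer than LOX. COL5A1 had 2 GC boxes and LOX had 1 GC box and 1 CCAAT box, which did not overlap, and SPARC had neither. Searched on both strands, GGGCGG was found in 42.3% of all windows and CCAAT in 33.0%. TATAAA (11.1% of all windows) and CACCTG, an E-box that ZEB proteins can bind (17.5%), were in none of the 3 windows. These matches describe letters, and binding was not measured. LOX has 3 starts and COL5A1 2 in the table, and the first was used. Members with no window shown for want of an entry are LUM, DCN, MFAP5, BMP1, LOXL2 and COL6A1.

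Side by side, 3 of the 8 tested members (LUM, MFAP5 and BMP1) were higher in every degron (++) library than in every degron (−) library, and 4 (LOXL2, SPARC, COL5A1 and COL6A1) were lower. Such separation was common, since 34.1% of all 12946 tested genes lay above and 37.2% below in the same way, and the members' counts follow from how they were chosen. The median of all tested genes was -0.02 without irradiation. The stromal-type genes did not move as a block. Marker genes did not all stand on 1 side either. The epithelial markers KRT8, KRT18, KRT19, EPCAM, CDH1 and KRT7 were higher in every degron (++) library, as 34.1% of all tested genes were. LUM, MFAP5 and BMP1 were high in the population in which VIM and ZEB1 were low and CDH2 and FN1 were high. Of the fibroblast and stellate cell markers tested, COL1A1 and THY1 were low there and RGS5 overlapped. SPARC, LOXL2, COL5A1 and COL6A1 were high in the other population. The part of these marker genes in the differences was not tested.

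The other genes of the families give a wider view of the same matrix. Of 77 listed, 37 were tested, and 12 lay higher and 21 lower in degron (++) without irradiation, 13 and 21 at 30 h with 4 Gy, and 12 and 22 at 48 h with 4 Gy (limma, adjusted p under 0.05). Beside the percents given above without irradiation, 38.3% of all tested genes were called higher and 40.8% lower at 30 h with 4 Gy, and 37.1% and 39.6% at 48 h with 4 Gy. The median log2 difference of the family genes was -0.80, -0.64 and -0.89, against -0.02, -0.02 and -0.01 over all tested genes. Rescaling each library to the same sum (TPM) moved the median of all tested genes without irradiation to -0.21, and of the genes called the percent that were higher moved from 48.3 to 35.9. Called in all 3 conditions with no overlap between libraries were 11 that were higher and 21 that were lower. The share of all tested genes under this joint rule was not counted, so nothing is read from these numbers. Lack of overlap alone held for 34.1% of all tested genes above and 37.2% below. The 4 tested fibrillar collagens were all lower and the 3 tested SPARC relatives all higher, in sets this small. Of 15 enzymes and chaperones of collagen in the endoplasmic reticulum, 14 were tested and 5 were higher and 7 lower without irradiation. Among these, the prolyl 3-hydroxylase genes LEPREL2 (-3.44, limma adjusted p = 1.1e-09) and LEPRE1 (-1.09, limma adjusted p = 4.05e-07) were lower. LEPREL1 of the same kind was higher (0.64, limma adjusted p = 2.83e-06), and the related LEPREL4 differed by -1.56 (limma adjusted p = 1.06e-08). PLOD3, a lysyl hydroxylase, differed by 0.44 (limma adjusted p = 9.02e-05).

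**Figure D2:**
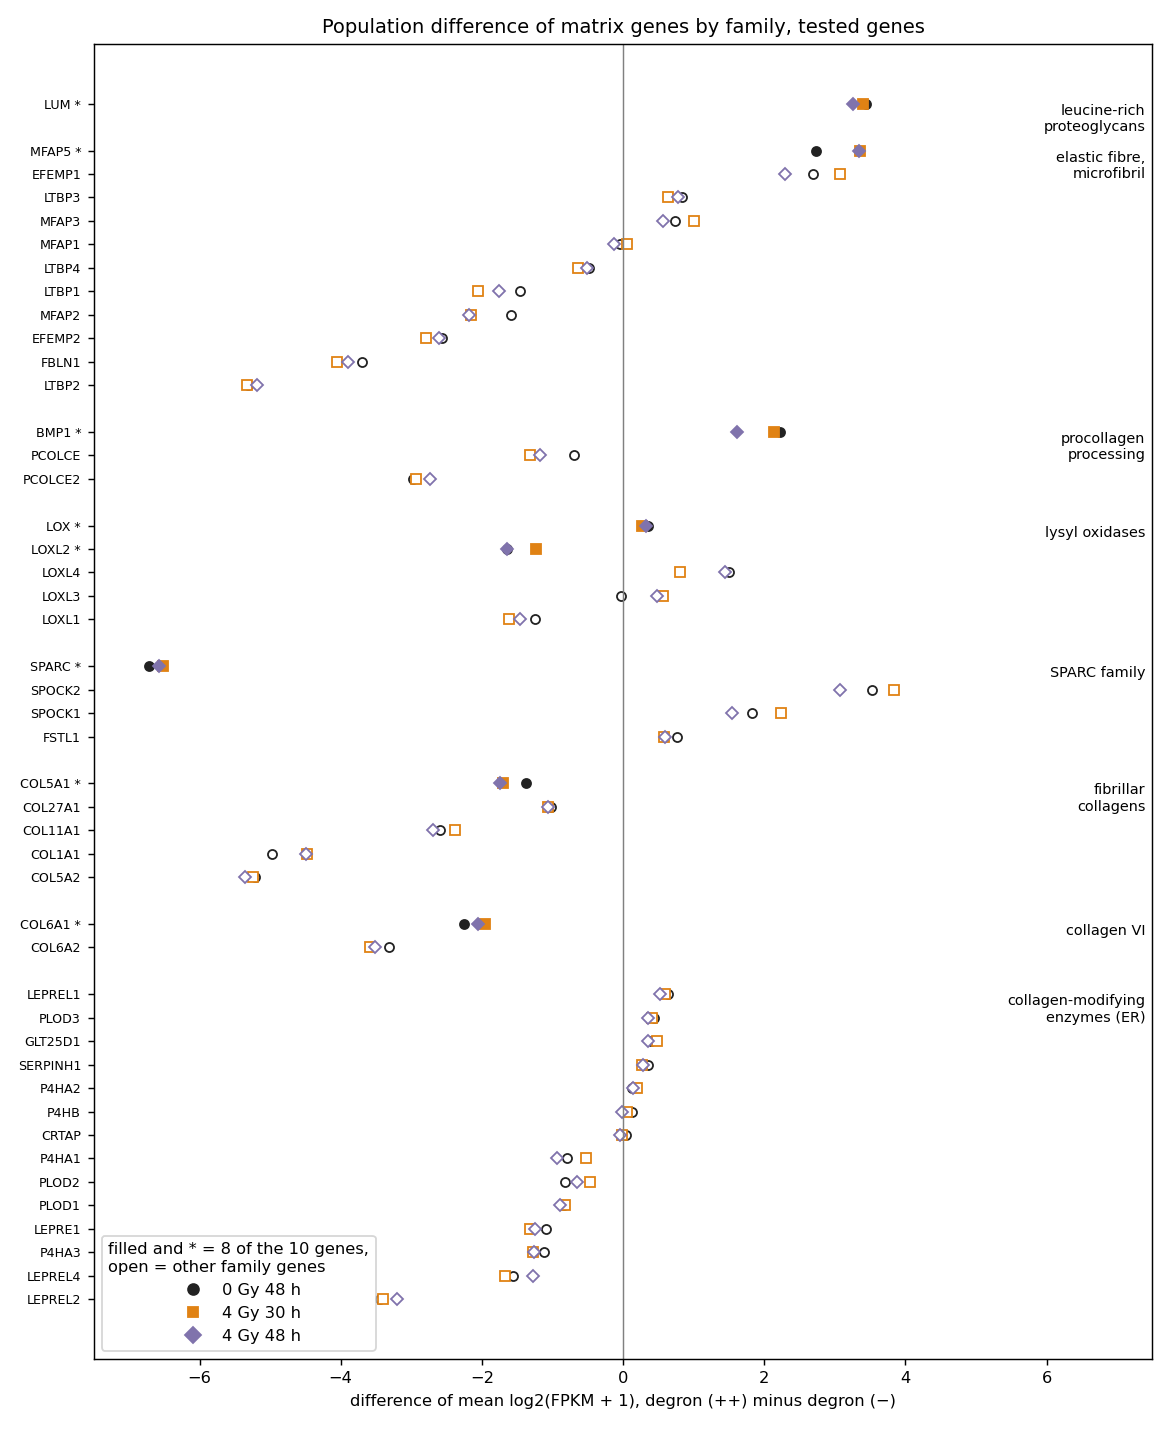
Difference of mean log2(FPKM + 1), degron (++) minus degron (−) (horizontal axis), for the 8 tested members (filled, starred) and 37 other tested genes of their families (open) without irradiation (circles), at 30 h with 4 Gy (squares) and at 48 h with 4 Gy (diamonds). Fibrillar collagens and collagen VI lie left of 0, SPARC lies at -6.71 to -6.52 while its relatives lie right of 0, and the lysyl oxidases and microfibril genes fall on both sides.

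The effect of dose was compared at 48 h, as 4 Gy minus 0 Gy in each population. In degron (++) cells MFAP5 rose, from 6.39 ± 1.0 to 14.9 ± 0.922 FPKM (SD, n = 2 each), a log2 difference of 1.11 (standard error 0.14, limma adjusted p = 0.015). It was the single member called of 8, where 1.82% of all tested genes were called. Without the library of 4 Gy replicate 1, of 4 Gy replicate 2 or of 0 Gy replicate 1 in turn, the difference for MFAP5 was 1.06, 1.17 and 0.98 and the limma adjusted p 0.084, 0.0812 and 0.104. With a pseudocount of 0.1 it was 1.22 (limma adjusted p = 0.09). COL6A1 was higher after 4 Gy in both libraries, by 0.37, but did not pass (limma adjusted p = 0.0712). The other members differed by -0.14 to 0.19.

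In degron (−) cells BMP1 was at 5.5 ± 0.0912 FPKM without irradiation and 8.04 ± 0.313 with 4 Gy (SD, n = 2 each), a log2 difference of 0.48 (standard error 0.05). This makes up most of a difference between the populations that was known when the members were chosen, so it is given as a description, and nothing is read from its being past the threshold, where 4.73% of all tested genes were. MFAP5 was higher in both irradiated libraries, with a ratio of means of 5.37 and a log2 difference of 0.50 (limma adjusted p = 0.0913). This value depended on the pseudocount, and with 0.1 it was 1.62 (limma adjusted p = 0.023). Without 4 Gy replicate 1 it was 0.72 (limma adjusted p = 0.0284). SPARC differed by -0.04 (95% interval -0.20 to 0.12) and LOXL2 by 0.08 (-0.07 to 0.23). Of the 37 family genes, 2 were called in degron (++) cells, which became 0 to 1 with a library left out, and 3 in degron (−) cells, which became 1 without degron (−) 48 h 4 Gy replicate 2. SERPINH1, a collagen chaperone, rose in either population, by 0.19 (limma adjusted p = 0.0465) and 0.27 (limma adjusted p = 0.00602). LOXL1 fell in degron (++) cells by 0.30 (limma adjusted p = 0.0469). EFEMP1 (0.43, limma adjusted p = 0.00351) and GLT25D1, a collagen galactosyltransferase (0.18, limma adjusted p = 0.0393), rose in degron (−) cells.

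Time at 4 Gy was compared as 48 h minus 30 h, with the same 4 Gy libraries at 48 h as in the comparison of dose. LUM rose in degron (++) cells, from 14.0 ± 0.348 to 22.1 ± 0.429 FPKM (SD, n = 2 each), by 0.62 on the log2 scale (standard error 0.11, limma adjusted p = 0.0396). In degron (−) cells it rose from 0.428 ± 0.196 to 1.42 ± 0.267 FPKM (SD, n = 2 each), by 0.76 (standard error 0.11, limma adjusted p = 0.00461). LUM was thus higher at 48 h in all 4 libraries, and the difference between the populations was -0.14 (95% interval -0.49 to 0.21). The ratio of means, 48 h over 30 h, was 1.58 in degron (++) and 3.31 in degron (−), and with a pseudocount of 0.1 the difference between the populations was -0.91 (limma adjusted p = 0.177).

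LOXL2 fell in degron (++) cells between 30 h and 48 h, from 23.1 ± 0.180 to 17.6 ± 1.51 FPKM (SD, n = 2 each), by 0.37 on the log2 scale (standard error 0.07, limma adjusted p = 0.0405). In degron (−) cells it differed by 0.05 (95% interval -0.11 to 0.20). BMP1 rose in degron (−) cells from 4.43 ± 0.274 to 8.04 ± 0.313 FPKM (SD, n = 2 each), by 0.74 (standard error 0.05). Its libraries at 48 h with 4 Gy also enter the dose difference known beforehand, so this rise is given as a description. In degron (++) cells BMP1 differed by 0.20 (limma adjusted p = 0.132). In each population 2 members of 8 were called, where 1.21% of all tested genes were called in degron (++) and 7.18% in degron (−) cells. BMP1 is 1 of the 2 in degron (−) cells, and nothing is read from that.

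The calls for LUM and LOXL2 in degron (++) cells were close to the threshold. For LUM the difference stayed at 0.60 to 0.65 with each library left out, and the call was lost without any of the 6 degron (++) libraries or either unirradiated degron (−) library, with limma adjusted p of 0.0586 to 0.183. For LOXL2 it stayed at -0.46 to -0.29, and the call was lost without these 8 libraries or either degron (−) library at 48 h with 4 Gy, with limma adjusted p of 0.0609 to 0.181. Of the 37 family genes, P4HA1, a prolyl 4-hydroxylase subunit, fell in degron (++) cells by 0.42 (limma adjusted p = 0.00381). In degron (−) cells 6 were called, of which EFEMP1 (0.75, limma adjusted p = 0.000176), SPOCK2 (0.84, limma adjusted p = 0.00455), SPOCK1 (0.36, limma adjusted p = 0.0352), COL11A1 (0.32, limma adjusted p = 0.0228) and MFAP3 (0.26, limma adjusted p = 0.021) rose and LOXL1 fell by 0.27 (limma adjusted p = 0.029). These 6 became 3 without degron (−) 30 h replicate 1, 2 without degron (−) 30 h replicate 2 or degron (−) 48 h 4 Gy replicate 2, and 3 with TPM rescaling.

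**Figure D3:**
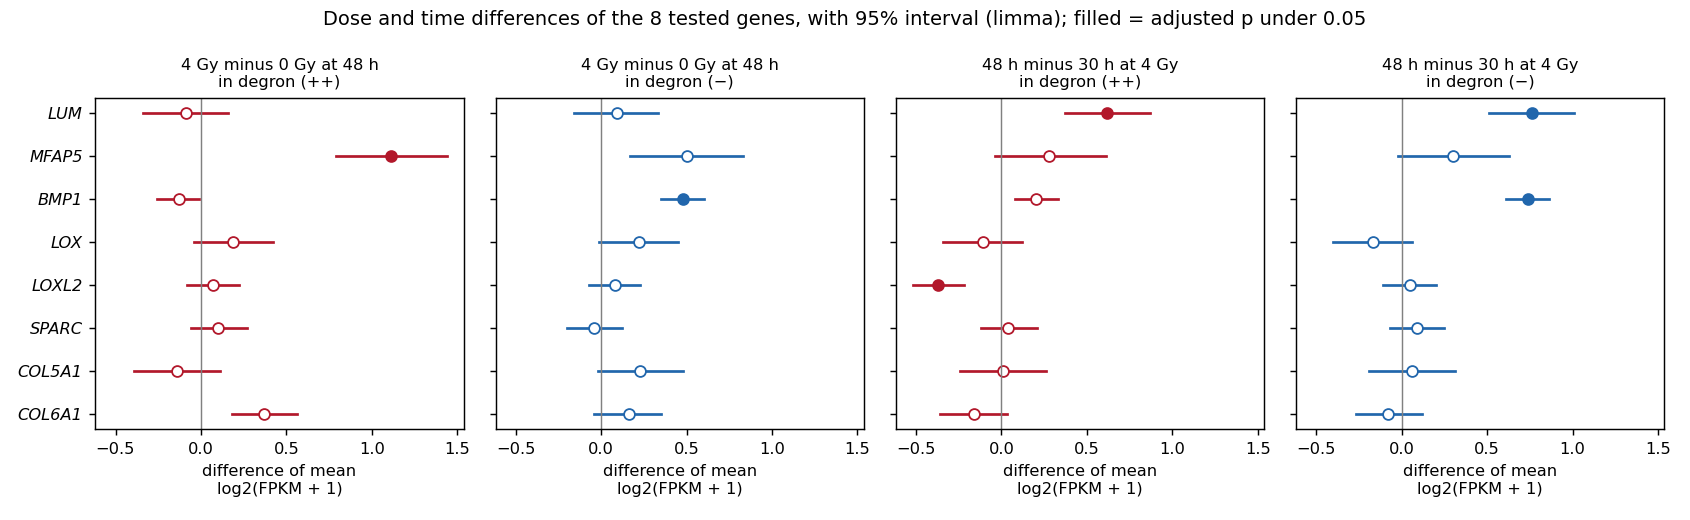
Differences of mean log2(FPKM + 1) (horizontal axis) with 95% intervals from limma for the 8 tested members, by dose at 48 h and by time at 4 Gy, in degron (++) (red) and degron (−) (blue); filled points passed an adjusted p of 0.05. MFAP5 stands at 1.11 for dose in degron (++), and BMP1 at 0.48 for dose and 0.74 for time in degron (−), both shown as a description.

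Whether the populations differed in these effects was tested by interaction. For BMP1 the effect of dose in degron (++) minus that in degron (−) cells was -0.61, a difference already known when the members were chosen and so given as a description. It stayed at -0.65 to -0.56 with each of the 6 degron (++) libraries or the 4 degron (−) libraries at 48 h left out, but was past the threshold no longer without any of these 10. For time it was -0.53 (95% interval -0.71 to -0.36). It was -0.51, -0.55 and -0.50, and past the threshold no longer, without degron (++) 30 h replicate 1, degron (++) 30 h replicate 2 and degron (−) 48 h 4 Gy replicate 2 in turn. The degron (−) libraries at 48 h with 4 Gy enter the dose value too, so the value for time is also a description. For time BMP1 was the single member of 8 past the threshold, where 3.23% of all tested genes were, and nothing is read from this. For dose 0.0772% of all tested genes were called, and nothing is read from this for BMP1. For MFAP5 the interaction with dose was 0.61 (95% interval 0.15 to 1.08, limma adjusted p = 0.252) but -0.40 with a pseudocount of 0.1 (limma adjusted p = 0.736), and the ratio of means, 4 Gy over 0 Gy, was 2.34 in degron (++) against 5.37 in degron (−), so neither a difference between the populations nor its direction was shown. For LOXL2 the interaction with time was -0.42 (95% interval -0.63 to -0.21, limma adjusted p = 0.0516), and it was -0.50 without degron (−) 30 h replicate 2 (limma adjusted p = 0.0476).

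Other genes moved with LUM and BMP1 in degron (−) cells. Expressed as a percent of the degron (++) mean at the same dose and time, BMP1 stood at 18.4% to 20.1% at 30 h with 4 Gy, 18.6% to 19.0% at 48 h without irradiation, and 29.4% to 31.1% at 48 h with 4 Gy. LUM stood at 2.07% to 4.05%, 4.92% to 5.83% and 5.56% to 7.26%, and MFAP5 at 1.81% to 2.69%, 1.5% to 1.93% and 2.31% to 5.56%. The median of CDKN2A, CDKN2B and MTAP, neighbours on chromosome 9, stood at 10.9% to 12.2%, 14.5% to 17.9% and 19.1% to 19.5% in the same order. The group at 48 h with 4 Gy was the highest for all 6 genes by mean. For the chromosome 9 genes the unirradiated group lay between the others, which was also so for LUM. The sum of epithelial markers moved in the same way. The FPKM of the 6 listed summed to 4230 to 4370 at 30 h with 4 Gy, 4410 to 4780 at 48 h without irradiation and 5000 to 5140 at 48 h with 4 Gy in degron (−) cells. In both libraries of the last group 6 of 6 lay above the 30 h group and 5 of 6 above the unirradiated group. The share of all tested genes that did so was not counted, so nothing is read from these counts. Among all tested genes called in degron (−) cells, 83.7% were higher at 48 h than at 30 h. For dose, 81.5% of those called were higher with 4 Gy. EPCAM stood at 14.7% to 15.7%, 21.1% to 21.2% and 22.9% to 27.0% of the degron (++) mean. From 30 h to 48 h with 4 Gy the ratio of means in degron (−) cells was 1.58 for EPCAM, 1.84 for CDH1 and 1.83 for KRT7. It was smaller for the other epithelial markers, at 1.18 for KRT8, 1.15 for KRT18 and 1.09 for KRT19. Beside these it was 1.82 for BMP1, 1.71 for EFEMP1, 1.83 for SPOCK2, 1.33 for SPOCK1 and 1.21 for MFAP3. The 12 fibroblast and stellate cell markers summed to 42.5 to 42.7, 47.9 to 56.8 and 44.8 to 45.7 FPKM in the same order of groups. Carcinoma genes of the mesenchymal type moved the other way as a sum, at 2730, 2560 to 2620 and 2400 to 2550 FPKM. VIM made up most of that sum, and CDH2 and FN1 of the same list were highest at 48 h with 4 Gy. What part the change of these genes has in the dose and time results of degron (−) cells was not tested.

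**Figure D4:**
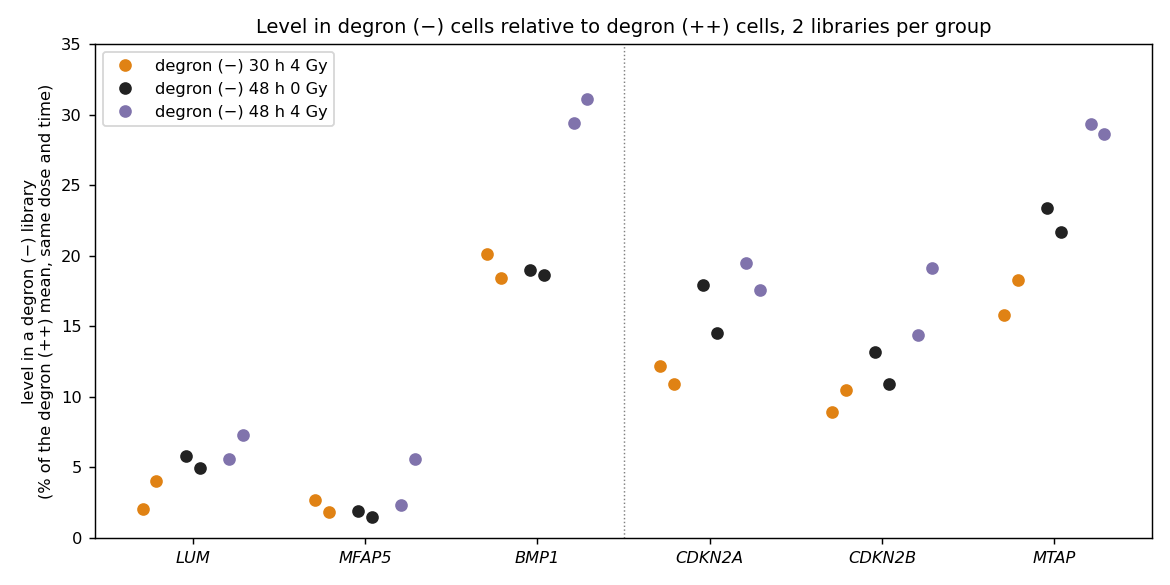
Level in each degron (−) library as a percent of the degron (++) mean at the same dose and time (vertical axis, from 0), for LUM, MFAP5 and BMP1 and, right of the dotted line, CDKN2A, CDKN2B and MTAP; each point is a library. The group at 48 h with 4 Gy is the highest for each gene by mean, with BMP1 at 29.4% to 31.1%.

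The genes most like each tested member over the 12 libraries were read from Pearson's r of log2(FPKM + 1), as a description, since the gap between the populations is shared by all such genes. LUM was closest to UNC93B1 (0.9985) and LLGL1 (0.9983), MFAP5 to ADAMTS1 (0.9961) and KLC3 (0.9933), and BMP1 to CEBPD (0.9976) and COL12A1 (0.9975). LOXL2 was closest to SLC26A2 (0.9971) and CD44 (0.9961), SPARC to COL5A2 and MFGE8 (0.9997 each), COL5A1 to KCNC4 (0.9959) and ZNF516 (0.9955), and COL6A1 to TPM2 (0.9986) and TUBB3 (0.9985). LOX, which had the smallest population gap, was closest to the collagen chaperone gene SERPINH1 (0.9492) and to EIF3I (0.9466). Of these 16 genes, COL5A2 and COL12A1 are themselves collagen genes.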

How the data were processed

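RNA sequencing libraries of PANC-1 degron (++) and degron (−) cells were used, 12 in 6 groups of 2 by the labels. Per the submitters' processing notes, TopHat2 2.1.1, Bowtie2 2.2.8, SAMtools 0.1.18, Cuffdiff 2.2.1 and hg19 were used, and the annotation is not given in the sources used here. Libraries came from a stranded mRNA kit. FPKM per gene symbol were deposited by the authors, 1 value for each library and with no counts, so depth is unknown and precision rests on the 2 libraries of a group. Values of 0 were taken as a listing, not as absence.

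From these, log2(FPKM + 1) was computed and fitted with limma 3.58.1 (6 group means over 12 libraries, eBayes with trend, R 4.3.3) on 12946 genes that reached 1 FPKM in 2 or more libraries. Calls used Benjamini-Hochberg adjusted p under 0.05 over all of these, and 95% intervals came from the same fit. The fits were tested on simulated data. Limma took the place of a test of each gene alone because groups hold 2 libraries. The members and gene lists were chosen with earlier results of these data known, the family genes by family and not by value. Named were the members, tested family genes at the extremes of their list or called for dose or time, family genes set by name, markers, and the 2 genes most like each member. CDKN2A, CDKN2B and MTAP were given as a measure that varies between the degron (−) libraries.

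Alternatives were a pseudocount of 0.1, quantile normalization, rescaling to TPM or to the sum without MIR622 (the gene that held 22.5% to 30.0% of it), a filter at FPKM 5 or none, eBayes with no trend, a replicate block, a fit restricted to the libraries compared, and leaving out each library. Promoter windows, gene neighbours and their order came from RefSeq tables of GRCh38.p14, and no coordinate was carried over to hg19. The other steps ran in Python 3.11.15 (pandas 2.3.3, numpy 2.4.6, matplotlib 3.10.9).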

Additional observations from a re-analysis of the deposited data

Results flagged for a closer look

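Genes were set apart where the effect of dose or time differed between the populations by the limma interaction test, given as the effect in degron (++) minus that in degron (−) cells. BMP1 differed for dose by -0.61, which was known when the members were chosen, and for time by -0.53. The degron (−) libraries at 48 h with 4 Gy enter both values, so both are given as a description. BMP1 rose in degron (−) cells and changed less in degron (++) cells. For time, EFEMP1 differed by -0.78 (limma adjusted p = 0.00259), SPOCK1 by -0.70 (limma adjusted p = 0.0202), MFAP3 by -0.45 (limma adjusted p = 0.0177), P4HA1 by -0.41 (limma adjusted p = 0.0116) and LEPREL4 by 0.40 (limma adjusted p = 0.0273). BMP1, EFEMP1, SPOCK1 and MFAP3 rose between 30 h and 48 h in degron (−) cells, and P4HA1 fell in degron (++) cells. Over all tested genes 3.23% were called for the time interaction, and only 15.8% of those called had a positive difference. Of all tested genes called between 30 h and 48 h in degron (−) cells, 83.7% rose. These directions were therefore common and not particular to the genes named. The 5 family genes became 1 without degron (++) 30 h replicate 2 or degron (−) 30 h replicate 1, 2 without degron (++) 30 h replicate 1 or degron (++) 48 h 4 Gy replicate 2, and 3 without degron (++) 48 h 4 Gy replicate 1, degron (−) 30 h replicate 2 or degron (−) 48 h 4 Gy replicate 2. The same 4 Gy libraries at 48 h enter the comparisons of dose and time.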

How the results depend on the processing

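The values of the members kept their direction under every alternative run, except for differences near 0 that were never called and MFAP5 in the dose interaction, which was -0.40 with a pseudocount of 0.1 and not called. The number of members called changed as follows, and the cause was not tested except where fewer libraries entered. For dose in degron (++) cells, 1 became 0 with a pseudocount of 0.1, with rescaling without MIR622 and in the fit on only the libraries compared, and 0 to 1 with each library left out. For dose in degron (−) cells, 1 became 2 with a pseudocount of 0.1 and 0 on only the libraries compared, and 1 to 2 with a library left out. For time in degron (++) cells, 2 became 1 with a pseudocount of 0.1, quantile normalization, TPM rescaling and rescaling without MIR622, became 0 with no filter, eBayes without trend and on only the libraries compared, and 0 to 2 with a library left out. For time in degron (−) cells, 2 became 0 on only the libraries compared. For the dose interaction, 1 became 0 with no filter, TPM rescaling, eBayes without trend and on only the libraries compared, and 0 to 1 with a library left out. For the time interaction, 1 became 2 with a pseudocount of 0.1, a filter at FPKM 5 and rescaling without MIR622, 0 on only the libraries compared, and 0 to 2 with a library left out. A group left with 1 library is assumed to vary like the other groups.

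The replicate block left 0 members called for time in degron (++) cells and 0 for the dose interaction and changed no other call of a member. Deviations of equal replicate numbers correlated at -0.0381 to 0.122, so the numbers were not taken to pair the samples. Over all tested genes, 236 were called for dose in degron (++) cells (17 to 248 over the other alternatives, 1 to 154 with a library left out), 612 for dose in degron (−) (8 to 710, 115 to 496), 156 for time in degron (++) (12 to 162, 15 to 122), 930 for time in degron (−) (7 to 1001, 281 to 940), 10 for the dose interaction (2 to 35, 0 to 18) and 418 for the time interaction (128 to 475, 67 to 393). On only the libraries compared, family genes called for dose in degron (−) cells became 0 of 3, for time in degron (−) 0 of 6 and for the time interaction 2 of 5. Among family genes, 9 to 17 were called higher and 17 to 28 lower in degron (++) over all alternatives and conditions. Without counts, the depth that limits low genes such as LOX, and LUM and MFAP5 in degron (−) cells, is unknown.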
